A study of Mus musculus with 10 samples.

Results

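The genes described here encode the inflammasome and its pyroptosis machinery: Nlrp3, Nlrc4, Aim2, Pycard, Casp1, Casp4, Gsdmd and Il18, 8 of the 21887 protein-coding genes of the mouse reference. They were chosen by name, and a p65 peak was counted for a gene when it overlapped the gene body extended by 10 kb on either side (build GRCm38). The 8 windows span 387.948 kb together, and in the 9 peak lists they held between 24 and 45 peaks per library, out of 37551 to 80153 peaks in the whole list.

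The data are CUT&Tag libraries, in which a transposase tethered through an antibody cuts the DNA next to a bound protein, here the NF-κB subunit p65. All 9 libraries came from wild-type RAW264.7 cells, a macrophage line derived from a tumour of a male mouse infected with Abelson leukaemia virus, and each library was made from 200000 cells. Treatment lasted 12 h and was DMSO alone, LPS (lipopolysaccharide, the bacterial ligand of Toll-like receptor 4) given with DMSO, or LPS together with Skatole, a metabolite that gut bacteria make from tryptophan, and each condition has 3 libraries. The labels name a p65 antibody, and the study's methods name one against phosphorylated p65. A library without primary antibody is not analysed here, so no peak was corrected here for tagmentation without the antibody. The peak caller is not given in the sources used here, so whether the authors' calls used that library is not known. The groups use 1 cell line, and no source says that the 3 libraries of a condition came from separate cultures, so p-values measure the spread between these libraries, which may be technical.

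In the canonical inflammasome a sensor protein that meets its trigger recruits the adaptor ASC, which in turn activates caspase-1, and caspase-1 cuts the precursors of interleukin-1β and interleukin-18 and the pore-forming protein gasdermin D. The murine product of Casp4 binds cytosolic LPS directly and cuts gasdermin D without that assembly. In macrophages the pathway is primed at the level of transcription, and the induction of Nlrp3 and Casp4 by LPS through NF-κB is well known.

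Promoter sequences of 300 bases (250 before and 50 after the start site, RefSeq, GRCm38) were found for 7 of the 8 genes, Gsdmd having no entry. They are shown for the genes that span the observed range: Nlrp3 and Casp4, whose promoters carry a κB match and lay under a peak in 9 of 9 libraries, Nlrc4, whose promoter lay under a peak in 1 DMSO library and in all 6 LPS and LPS+Skatole libraries, and Pycard, whose promoter lay under a peak in 0 of 9. Capitals mark matches to the κB decamer consensus, searched on both strands. The Nlrp3 promoter belongs to the upstream one of 2 start sites (chr11:59541319-59541618, plus strand), the Casp4 promoter to the first of 2 (chr9:5308599-5308898, plus strand), the Nlrc4 promoter is at chr17:74459059-74459358 on the minus strand and the Pycard promoter at chr7:127993818-127994117 on the minus strand.
Nlrp3: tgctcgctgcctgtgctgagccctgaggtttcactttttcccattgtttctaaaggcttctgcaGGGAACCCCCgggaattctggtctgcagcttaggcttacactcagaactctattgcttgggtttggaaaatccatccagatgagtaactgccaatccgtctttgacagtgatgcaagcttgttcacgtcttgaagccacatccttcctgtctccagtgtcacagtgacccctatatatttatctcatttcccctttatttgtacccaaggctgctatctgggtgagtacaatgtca
Casp4: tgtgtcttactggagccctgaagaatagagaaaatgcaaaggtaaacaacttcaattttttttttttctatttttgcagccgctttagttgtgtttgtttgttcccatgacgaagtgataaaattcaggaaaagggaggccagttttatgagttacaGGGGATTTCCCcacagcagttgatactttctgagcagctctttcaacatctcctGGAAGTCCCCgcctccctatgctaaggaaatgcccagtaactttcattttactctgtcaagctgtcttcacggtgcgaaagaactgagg
Nlrc4: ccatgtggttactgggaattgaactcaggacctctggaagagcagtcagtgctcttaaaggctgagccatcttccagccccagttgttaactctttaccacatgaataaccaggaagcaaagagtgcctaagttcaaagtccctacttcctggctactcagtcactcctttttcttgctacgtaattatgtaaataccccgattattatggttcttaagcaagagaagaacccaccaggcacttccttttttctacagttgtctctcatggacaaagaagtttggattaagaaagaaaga
Pycard: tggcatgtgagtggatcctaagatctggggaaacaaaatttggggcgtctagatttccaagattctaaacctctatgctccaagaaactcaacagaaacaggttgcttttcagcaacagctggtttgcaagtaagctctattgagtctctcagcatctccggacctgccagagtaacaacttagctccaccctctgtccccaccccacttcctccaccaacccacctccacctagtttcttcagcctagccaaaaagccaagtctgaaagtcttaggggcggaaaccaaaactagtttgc

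The κB match of Nlrp3 ran from position -186 to -177 relative to the upstream start site and matched the consensus on both strands. Casp4 had a pair of overlapping κB matches from -93 to -83 and another, on the minus strand, from -39 to -30. Peaks covered all of these matches in 9 of 9 libraries, whatever the treatment. A κB match was present in 8.459% of 32851 RefSeq promoters of this length, the AP-1 motif TGANTCA in 7.808% (in none of the 7 genes) and the ETS-type motif GAGGAAGT in 3.202% (in Aim2 at -113 to -106 and, on the minus strand, in Pycard at -44 to -37). These matches overlap no other motif searched, and they describe the sequence only. The promoters of Nlrc4, Aim2, Pycard, Casp1 and Il18 and the downstream promoter of Nlrp3 held none for κB.

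Promoter peaks were present without LPS at most of these genes. The promoters of Nlrp3 (both start sites), Aim2, Casp4 and Il18 lay under a peak in all 9 libraries, that of Casp1 in 8 (2 DMSO, 3 LPS and 3 LPS+Skatole) and that of Nlrc4 in 7 (1, 3 and 3). Of all RefSeq promoters 20.87% lay under a peak in all 9 libraries, and between 26.468% and 30.8027% in a single library. Peaks within 10 kb were found in all 9 libraries for 7 of the 8 genes, every one but Pycard, against 54.2% of all protein-coding genes. Per library, 7, 8 and 8 of the genes had a peak with DMSO, all 8 in every LPS library, and 8, 8 and 7 with LPS+Skatole, the gene without one being Pycard. The share of all protein-coding genes with a peak was 65.0 ± 1.25%, 70.1 ± 1.22% and 75.8 ± 0.412% in the same order (mean ± SD, n = 3).

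**Figure D1:**
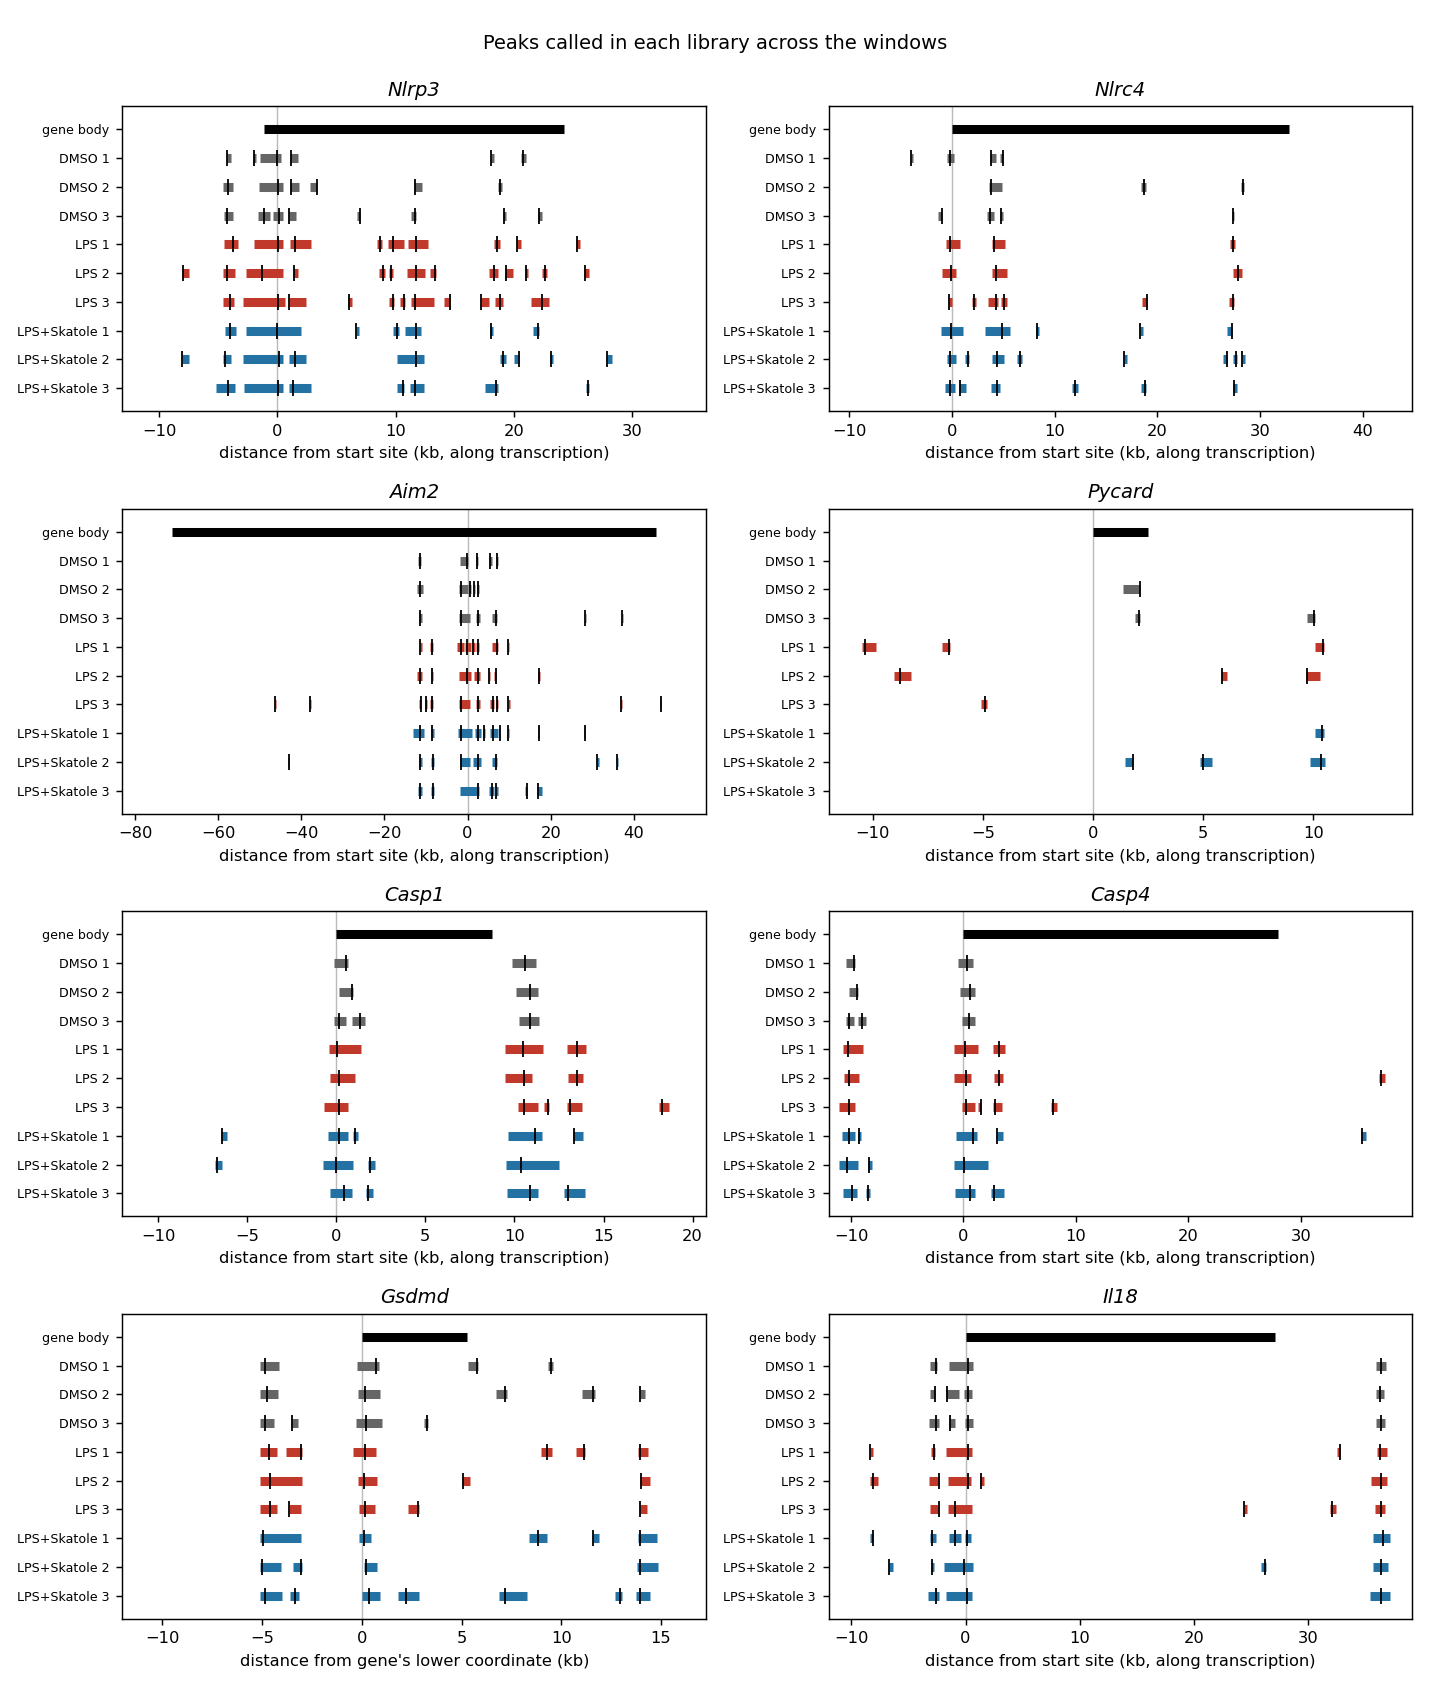
Peaks called in each library (rows) across the window of each gene, by distance from the start site in kb (the downstream one for Nlrp3, and for Gsdmd from the gene's lower coordinate), with black ticks at the summits and a black bar for the gene body. Nlrp3, Aim2, Casp4 and Il18 had peaks at the start site in all DMSO libraries (grey), and intragenic peaks of Nlrp3 were more numerous in the LPS libraries (red) than in DMSO, with LPS+Skatole in blue.

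The lists differ in length and in their detection limit, which bears on every count. DMSO lists held 37551 to 43450 peaks, LPS lists 55637 to 63498 and LPS+Skatole lists 78136 to 80153. Summit counts recovered from the deposited values put the lowest callable summit at 6.44 to 7.34 times the genome background in DMSO, against 4.69 to 4.94 in LPS and 4.59 to 4.87 in LPS+Skatole, so a weak peak was harder to call in DMSO. Where the local background is above the genome background, the limit is higher. More p65 per cell and more cells with p65 at a site cannot be told apart.

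LPS libraries had more peaks at the inflammasome genes than DMSO libraries, and LPS+Skatole libraries did not have more than LPS libraries although their lists were longer. The 8 windows held 24, 26 and 31 peaks with DMSO, against 37, 39 and 45 with LPS and 39, 41 and 34 with LPS+Skatole. The LPS values all lay above the DMSO values, as did the LPS+Skatole values, while LPS and LPS+Skatole overlapped. The ratio of means was 1.49 for LPS against DMSO, 0.942 for LPS+Skatole against LPS and 1.41 for LPS+Skatole against DMSO. Per 100 kb of window the inflammasome genes had 6.96 ± 0.929 peaks with DMSO, against 10.4 ± 1.07 with LPS and 9.80 ± 0.929 with LPS+Skatole (mean ± SD, n = 3). All gene windows had 2.58 ± 0.180, 3.68 ± 0.223 and 4.70 ± 0.0414, which were higher at each step. When every list was cut to the 37551 peaks with the highest -log10 p, the member ratios became 1.17, 0.857 and 1.00.

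By gene, LPS against DMSO separated the peak numbers of Nlrp3, Aim2 and Il18, and LPS+Skatole against DMSO those of Nlrc4, Aim2 and Casp1. In the first comparison 3 of the 8 genes had more peaks in every LPS library than in any DMSO library, against 12.2% of the 19505 genes tested, and 0 had fewer, against 0.364%. LPS+Skatole against LPS gave 0 genes higher, against 9.1%, and 0 lower, against 0.774%. LPS+Skatole against DMSO gave 3 higher, against 25.4%, and 0 lower, against 0.174%. Without DMSO replicate 3 the higher counts were 5 for LPS, against 17.5% of all genes, and 5 for LPS+Skatole, against 31.6%. With lists of equal length they were 0 in both, against 2.77% and 3.18%. With 3 libraries against 3, the smallest two-sided exact permutation p is 0.1, so no single pair can pass 0.05.

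The exact permutation test across the 3 groups, which takes all 280 ways to divide the libraries, adjusted over all 19505 genes, called 0 of the 8 genes and 0% of all genes. At an unadjusted p under 0.05 it took 1 of the 8, Nlrp3, against 15.8% of all genes. The plot of peak number by library shows the spread behind these counts.

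**Figure D2:**
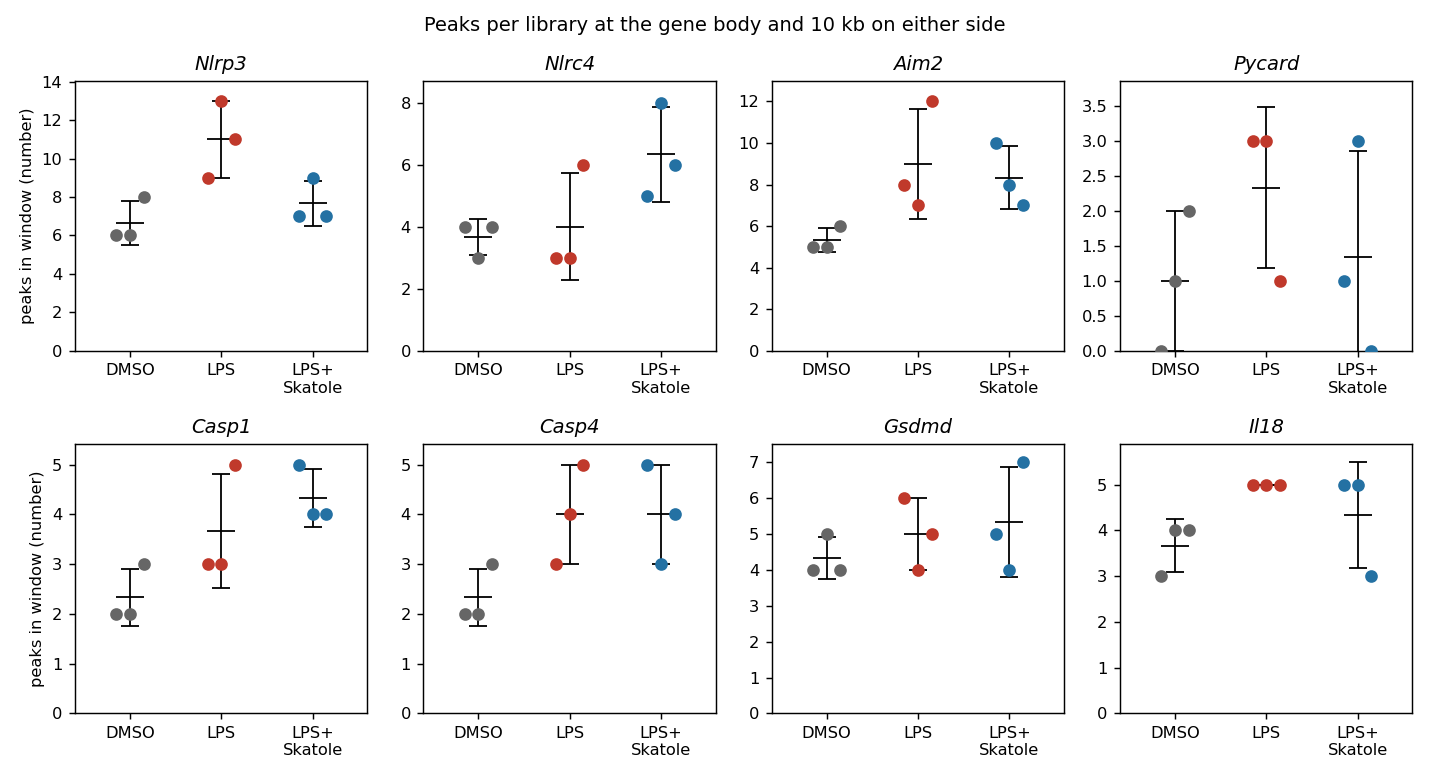
Number of peaks in the window of each gene (y axis) by condition, 1 point per library with the mean and SD in black. The 3 LPS libraries had 9 to 13 peaks at Nlrp3 against 6 to 8 in DMSO and 7 to 9 in LPS+Skatole, and Pycard had 0 to 3 throughout.

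Because neighbouring peaks can merge into 1 long peak, the covered length of each window was measured as well, a choice made after the data were seen. Covered length separated more genes than peak number did. Nlrp3, Nlrc4, Aim2, Casp1, Casp4 and Il18, 6 of the 8, were more covered in every LPS library than in any DMSO library, against 26.2% of all genes, and 0 were less covered, against 0.861%. Casp1 and Casp4 are not separate observations in this count, since 29 of the 31 peaks counted for Casp1 over the 9 libraries also count for Casp4. The same 6 genes were more covered in LPS+Skatole than in DMSO, against 40.9%, and 0 less, against 0.605%. LPS+Skatole against LPS gave Nlrc4 and Aim2 higher, 2 of 8 against 16.6%, and Nlrp3 lower, 1 of 8 against 2.2%. The exact permutation test over the 3 groups had an unadjusted p under 0.05 for those 6 genes, against 28% of all genes, and an adjusted p under 0.05 for 0 genes and 0% of all. Over the whole lists the covered length was 29.1 ± 2.55 Mb with DMSO, 43.2 ± 1.84 Mb with LPS and 55.6 ± 1.29 Mb with LPS+Skatole, which is 1.48 times, 1.29 times and 1.91 times for the 3 comparisons in the order above.

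**Figure D3:**
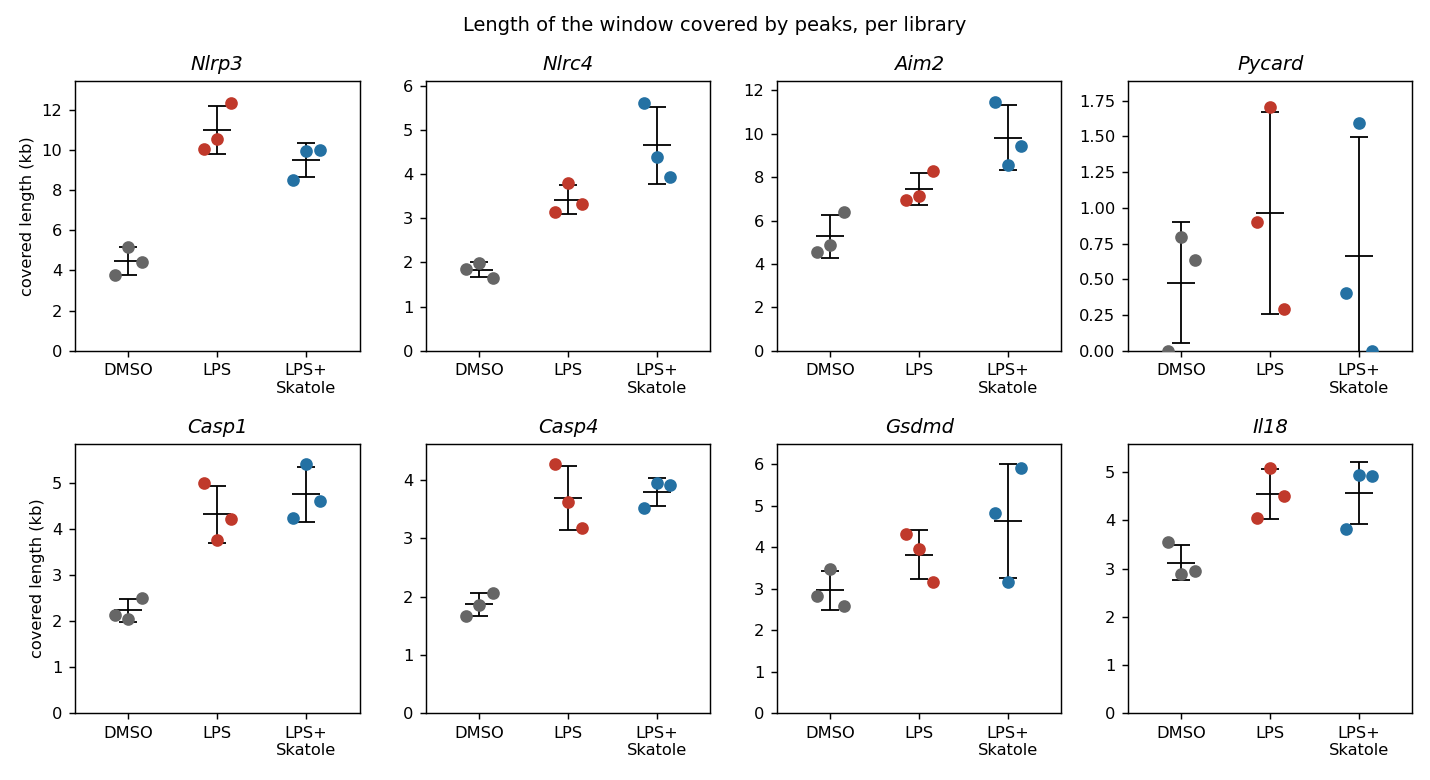
Length of each gene window covered by peaks in kb (y axis) by condition, 1 point per library with the mean and SD in black. Nlrp3 was covered over 3.77 to 5.17 kb in DMSO, 10.1 to 12.4 kb in LPS and 8.51 to 10.0 kb in LPS+Skatole, whereas Nlrc4 and Aim2 were covered most in LPS+Skatole.

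Merging the peaks of the 9 lists gave 79 regions in the windows, of which 13 (16.5%) were called in all 9 libraries, and 38 (48.1%) in 1 library only. Over all 235070 regions of the genome those shares were 5.88% and 71.3%. LPS gained 2 of the 79 regions, called in 3 of 3 LPS and 0 of 3 DMSO libraries, against 0.984% of all regions, and lost 0, against 0.0408%. LPS+Skatole against LPS gained 0, against 0.507%, and lost 0, against 0.112%. LPS+Skatole against DMSO gained 1, against 1.85%, and lost 0, against 0.034%. The gained regions were at Aim2 (in LPS and in LPS+Skatole) and at Casp4 (in LPS). Leaving out LPS replicate 3 raised the first count to 4, against 1.77% of all, and leaving out LPS+Skatole replicate 2 raised the count of LPS+Skatole against DMSO to 3, against 3.24%. Leaving out DMSO replicate 2, LPS+Skatole replicate 1 or LPS+Skatole replicate 3 gave 2 in the latter comparison, against 2.47%, 3.26% and 3.26%.

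The summit height of the 13 shared regions is given as the summit count over the lowest background of its list, in times the genome background. This scale moved for the whole genome: over 13824 regions called in all 9 libraries the median log2 change was -0.24 for LPS against DMSO, 0.24 for LPS+Skatole against LPS and -0.008 for LPS+Skatole against DMSO, and changes below are to be read against it. Of the 13 regions, 0 were higher in every LPS than in any DMSO library (4.22% of all) and 2 were lower (23.6%), at Aim2 and Nlrc4. Against LPS, LPS+Skatole was higher at 3 (22.9%), at Nlrp3, Aim2 and Nlrc4, and lower at 0 (1.75%). Against DMSO, LPS+Skatole was higher at 3 (13.3%), at Nlrp3, Aim2 and Il18, and lower at 0 (11.5%).

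With every library centred on its own median, a choice made after the data were seen, the calls changed. LPS was then above DMSO at 2 regions, the Nlrp3 start site and the region beyond Il18 (8.8% of all), and below it at 0 (10.5%). LPS+Skatole was above LPS at 1, Aim2 (6.67%), and below it at 0 (9.92%), and above DMSO at 1, the Nlrp3 start site (10.5%), and below it at 0 (15.7%). The exact permutation test over the 3 groups on the uncentred heights took 2 of the 13 regions at an unadjusted p under 0.05, against 20.5% of all, and 0 at an adjusted p under 0.05, against 0% of all. Fitted with limma as an added alternative, the same heights gave 0 of the 13 regions at an adjusted p under 0.05 in any of the 3 comparisons, with or without centring. Of all regions limma called 0.275% higher and 0.593% lower in LPS than in DMSO, 0.246% and 0% in LPS+Skatole against LPS, and 3.75% and 1.14% in LPS+Skatole against DMSO. After centring these shares were 0.47% and 0.094%, 0% and 0%, and 2.76% and 1.72%. Leaving out single libraries moved the counts of regions whose uncentred heights did not overlap, LPS+Skatole replicate 1 most, without which 6 regions were higher than in LPS (32.1% of all) and 5 higher than in DMSO (18.1%). Without DMSO replicate 1 or DMSO replicate 2, 4 regions were lower in LPS (31.7% and 32.9% of all).

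**Figure D4:**
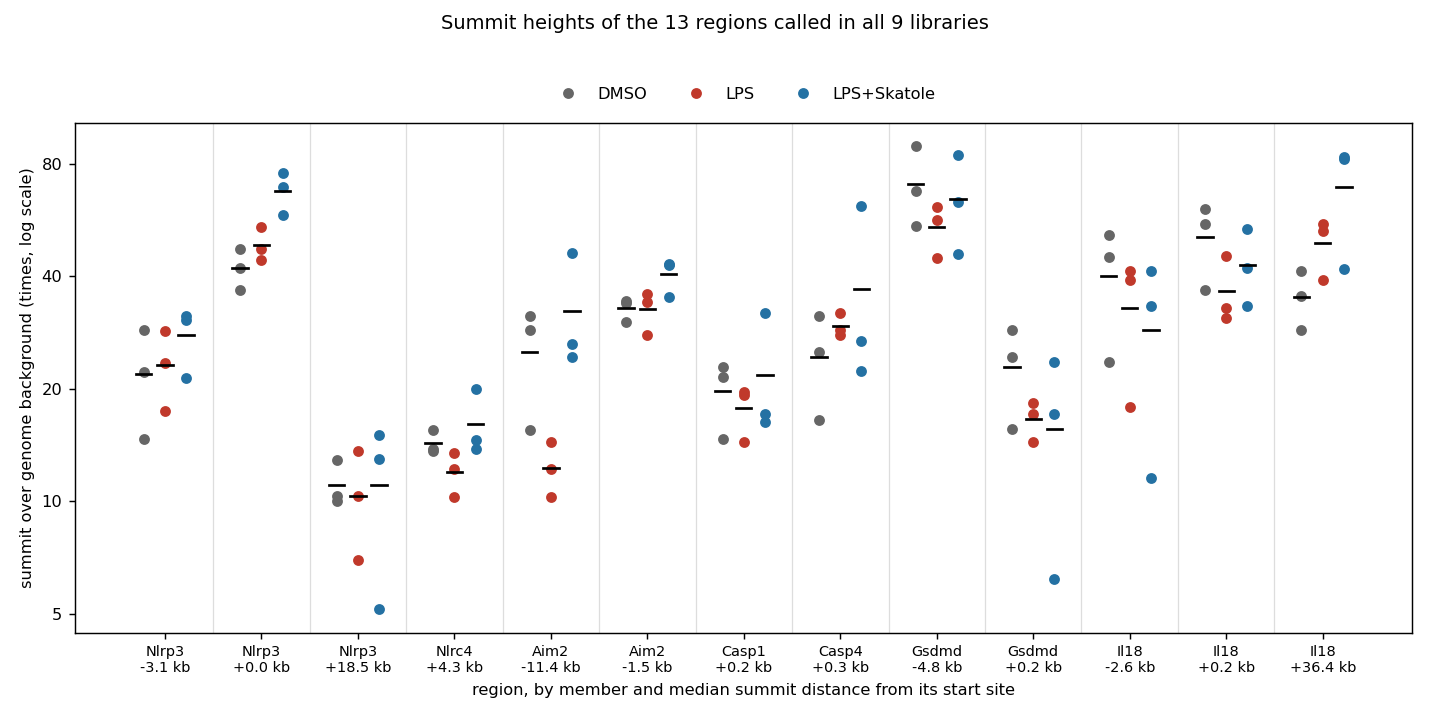
Summit over genome background (log axis) of the 13 regions called in all 9 libraries, named by gene and median summit distance from the nearest start site, 1 point per library and a black bar at the group mean. At the Nlrp3 start site the 3 LPS+Skatole libraries sit at 58.1 to 75.6, above the LPS libraries at 44.0 to 54.0, and at Aim2 11.4 kb upstream the LPS libraries sit at 10.2 to 14.4, below all others.

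Among the sensors, Nlrp3, which responds to many signs of membrane and ion disturbance, had the longest covered window after LPS. Its peak numbers were 6, 6 and 8 with DMSO, against 9, 13 and 11 with LPS and 7, 9 and 7 with LPS+Skatole. Every LPS library lay above every DMSO library, and LPS and LPS+Skatole shared the value 9 (exact permutation test over the 3 groups, p = 0.0357, adjusted p = 0.259). The covered length was 3.77, 5.17 and 4.45 kb with DMSO, against 10.1, 10.6 and 12.4 with LPS and 8.51, 9.97 and 10.0 with LPS+Skatole. The 3 groups did not overlap, DMSO being lowest and LPS highest, at 4.46 ± 0.703, 11.01 ± 1.21 and 9.50 ± 0.858 kb (mean ± SD, n = 3; exact permutation test, p = 0.00357, adjusted p = 0.0616). With lists of equal length DMSO stayed lowest, LPS and LPS+Skatole overlapped, and the ratio of LPS+Skatole to LPS was 1.02 instead of 0.863.

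The peaks of Nlrp3 formed a cluster at the start sites and others inside the gene. The start-site region (chr11:59539751-59546074), which spans both start sites and the κB match shown above, had summit heights of 36.7, 47.2 and 41.9 times with DMSO, against 54.0, 44.0 and 47.4 with LPS and 58.1, 69.0 and 75.6 with LPS+Skatole. The highest summit lay within 250 bases of the downstream start site in 8 of 9 libraries, about 1.30 kb from the κB match, and near the match, at -1269, in LPS replicate 2. LPS and DMSO overlapped, and all LPS+Skatole values lay above both (means 42.0 ± 5.24, 48.5 ± 5.10 and 67.6 ± 8.82, n = 3; exact permutation test over the 3 groups, p = 0.00714, adjusted p = 0.149). After centring, LPS+Skatole overlapped LPS at a ratio of 1.15, and both lay above DMSO, at 1.52 and 1.33 times. The local background under these summits differed between libraries. Their folds over it were 17.3, 24.1 and 8.72 with DMSO, against 32.5, 21.2 and 28.8 with LPS and 35.0, 15.6 and 44.7 with LPS+Skatole, and all groups overlapped. The highest-ranked Nlrp3 peak stood at rank 4104, 2310 and 5678 with DMSO, against 807, 2065 and 1546 with LPS and 1204, 2251 and 466 with LPS+Skatole (1 being the highest -log10 p of the list). All LPS and LPS+Skatole ranks were better than the best DMSO rank, in lists that were also longer. Ranked by fold, LPS replicate 2 stood at 2476, behind DMSO replicate 2 at 1868, so that LPS and DMSO overlapped.

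An intragenic region of Nlrp3 at 11.7 kb from the downstream start site (chr11:59552063-59556100) had a peak in 2 of the DMSO lists and in all 3 of either other condition, with its summits within 50 bases of each other, from 11668 to 11718. Its height was 23.6 and 19.1 times in the DMSO libraries that had it, 22.7, 23.8 and 20.1 in LPS and 30.8, 29.6 and 30.1 in LPS+Skatole. All LPS+Skatole values lay above the LPS values, at 1.36 times, against a median shift of 1.18 times over all shared regions. That median covers only regions called in all 9 libraries, so this region is not among them. The other member regions called in 8 libraries gave 1.62 times without overlap at Aim2, and 1.07 and 1.09 times with overlap at Nlrc4. Regions 3.10 kb before the upstream start site and 18.5 kb past the downstream one were called in all 9 libraries, and their groups overlapped. The window also overlaps Olfr222, an odorant receptor gene beyond the 3′ end.

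Nlrc4, which assembles with NAIP proteins that recognise bacterial flagellin and secretion needles, had a promoter peak in more libraries with LPS or LPS+Skatole than with DMSO. The promoter lies in a merged region (chr17:74457447-74460458) whose peaks stood over the promoter in DMSO replicate 1 at 10.1 times, in all LPS lists at 17.4, 21.1 and 16.6 times and in all LPS+Skatole lists at 18.4, 16.8 and 25.1 times. The LPS and LPS+Skatole values overlapped, and all were above the single DMSO value. DMSO replicate 3 had a peak in the same region that did not reach the promoter, with its summit at -979, and DMSO replicate 2 had none. The median summit lay 0.202 kb before the start site, inside the promoter sequence printed above, which has no κB match.

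Peak numbers at Nlrc4 were 4, 3 and 4 with DMSO, against 3, 3 and 6 with LPS and 5, 8 and 6 with LPS+Skatole. All LPS+Skatole values exceeded the DMSO values, and LPS overlapped both (exact permutation test over the 3 groups, p = 0.132, adjusted p = 0.451). The covered length was 1.86, 1.99 and 1.65 kb with DMSO, against 3.15, 3.79 and 3.33 with LPS and 5.62, 4.39 and 3.94 with LPS+Skatole. It was longer from group to group without overlap (1.83 ± 0.171, 3.42 ± 0.329 and 4.65 ± 0.869 kb; exact permutation test, p = 0.00357, adjusted p = 0.0616), and LPS and LPS+Skatole overlapped when the lists had equal length. An intragenic region 4.32 kb downstream was called in all 9 libraries at 10.2 to 19.9 times, lowest in LPS, where all 3 values lay below those of the other groups. After centring the groups overlapped there. The window reaches into Slc30a6, a zinc transporter gene, and holds the pseudogene Gm4708.

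Aim2, the sensor of double-stranded DNA in the cytosol, held the region with the widest difference of group means, as a ratio, among the 13 shared regions in LPS against DMSO and in LPS+Skatole against LPS. It lies 11.4 kb upstream of the start site, within the annotated gene body (chr1:173407579-173410094), and its heights were 31.2, 28.6 and 15.5 times with DMSO, against 12.2, 14.4 and 10.2 with LPS and 24.4, 46.0 and 26.3 with LPS+Skatole. The LPS values were the lowest and overlapped neither DMSO nor LPS+Skatole, which overlapped each other (exact permutation test over the 3 groups, p = 0.0393, adjusted p = 0.214). LPS was 0.489 times DMSO and LPS+Skatole 2.63 times LPS. After centring, LPS+Skatole was 2.09 times LPS, still without overlap, while LPS and DMSO overlapped at 0.581 times. In limma the second difference was 1.35 ± 0.305 (log2 change ± SE, n = 3 per group) with an adjusted p of 0.0684, and 0.312 after centring.

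A second upstream region of Aim2, 8.52 kb before the start site (chr1:173411611-173412509), had a peak in 0 of the DMSO lists and in all 3 of either other condition. Its heights were 13.5, 11.2 and 19.2 times in LPS and 21.4, 13.3 and 19.2 times in LPS+Skatole, which overlapped, against lowest callable summits of 6.44 to 7.34 times over the whole DMSO lists. The local background at this region was 1.26 to 1.33 times the genome background in LPS and LPS+Skatole, which raises the limit there. The region at the start site (chr1:173418156-173423858) had 34.0, 34.3 and 30.2 times with DMSO, against 27.9, 34.1 and 35.8 with LPS and 43.2, 42.9 and 35.1 with LPS+Skatole. Here DMSO and LPS overlapped, and all LPS+Skatole values were above the DMSO values but not after centring. The value of LPS+Skatole replicate 3 came from a summit at 2434, inside the gene, and those of the other libraries from summits at -1676 to -121. DMSO replicate 2 had a further summit of equal height at 2452. Peak numbers were 5, 5 and 6 with DMSO, against 8, 7 and 12 with LPS and 10, 8 and 7 with LPS+Skatole, with every DMSO library below all others (exact permutation test, p = 0.104, adjusted p = 0.404). The covered length was 5.28 ± 0.982 kb with DMSO, against 7.46 ± 0.739 with LPS and 9.83 ± 1.49 with LPS+Skatole, without overlap between any groups (exact permutation test, p = 0.00357, adjusted p = 0.0616). With lists of equal length LPS and DMSO overlapped there, and LPS+Skatole stayed above both. The window reaches into Cadm3 and Ifi206, a neighbour of the same gene family.

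Pycard, which encodes the adaptor ASC, was the gene with the fewest peaks summed over the 9 libraries. Its peak numbers were 0, 1 and 2 with DMSO, against 3, 3 and 1 with LPS and 1, 3 and 0 with LPS+Skatole, and the groups overlapped (exact permutation test, p = 0.529, adjusted p = 0.850). Of its 8 regions the most frequent was called in 5 libraries, 10.3 kb past the start site and outside the gene. A region 2.10 kb past the start site, in the gene body, was called in 3 libraries (2 DMSO and 1 LPS+Skatole). Its highest-ranked peak stood between rank 23426 and 41757 where there was one. RAW264.7 cells are known for lacking ASC protein, and the peak lists hold no measure of expression.

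The inflammatory caspase genes lie next to each other on chromosome 9 and share part of their windows, so that nearly all peaks of Casp1, the Casp4 start site included, count for both. Casp1, whose product cuts the cytokine precursors, had peak numbers of 2, 2 and 3 with DMSO, against 3, 3 and 5 with LPS and 5, 4 and 4 with LPS+Skatole (exact permutation test, p = 0.114, adjusted p = 0.418). Casp4 had peak numbers of 2, 2 and 3 with DMSO, against 3, 4 and 5 with LPS and 5, 3 and 4 with LPS+Skatole (exact permutation test, p = 0.157, adjusted p = 0.483). All LPS+Skatole libraries exceeded all DMSO libraries at Casp1, and the groups overlapped at Casp4. The covered length was 2.14, 2.04 and 2.51 kb with DMSO, against 4.99, 3.77 and 4.22 with LPS and 4.23, 5.40 and 4.62 with LPS+Skatole at Casp1. At Casp4 it was 1.66, 1.86 and 2.07 kb with DMSO, against 4.27, 3.61 and 3.18 with LPS and 3.52, 3.94 and 3.92 with LPS+Skatole. At both genes every LPS and LPS+Skatole library was covered over a longer stretch than any DMSO library, and LPS and LPS+Skatole overlapped (exact permutation test over the 3 groups, p = 0.0143, adjusted p = 0.101 for Casp1 and p = 0.0321, adjusted p = 0.142 for Casp4).

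The start-site region of Casp1 (chr9:5297804-5300150) had heights of 14.7, 21.5 and 22.8 times with DMSO, against 19.2, 14.4 and 19.6 with LPS and 16.2, 31.8 and 17.1 with LPS+Skatole, and all groups overlapped. That of Casp4 (chr9:5307984-5311016), which spans the κB matches printed above, had 31.2, 16.4 and 25.0 times with DMSO, against 31.8, 28.8 and 27.7 with LPS and 22.2, 61.5 and 26.7 with LPS+Skatole. LPS+Skatole replicate 2 was the highest library in both regions, and without it the LPS+Skatole values at Casp4 lay within the DMSO range and below all LPS values. An intragenic Casp4 region 3.00 kb past the start site (chr9:5311299-5312519) had a peak in 0 of the DMSO lists, in 3 of LPS and in 2 of LPS+Skatole. In LPS+Skatole replicate 2, which lacks it, the start-site peak extended furthest into the gene, as the map of peaks shows.

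Gsdmd, which encodes the pore-forming gasdermin D, had peak numbers and covered lengths that overlapped between the groups of every pair. Its peak numbers were 4, 5 and 4 with DMSO, against 6, 4 and 5 with LPS and 5, 4 and 7 with LPS+Skatole (exact permutation test, p = 0.721, adjusted p = 0.988), and its covered length was 2.83, 3.47 and 2.58 kb with DMSO, against 4.32, 3.97 and 3.17 with LPS and 4.82, 3.17 and 5.90 with LPS+Skatole. Its start-of-gene region (chr15:75861701-75863156) had heights of 15.6, 24.3 and 28.7 times with DMSO, against 18.3, 14.4 and 17.1 with LPS and 23.5, 6.19 and 17.1 with LPS+Skatole, with LPS+Skatole replicate 2 the lowest. A region 4.83 kb below the gene's lower coordinate had the highest summit of the shared regions in 5 of 9 libraries, with values of 44.8 to 89.0 times the genome background, but stood on a local background of 4.3 to 27.0 times, so that its fold over local background was 2.3 to 12.9. It lies 0.803 kb from the pseudogene Gm9568. A region 14.0 kb above that coordinate had a peak in 1 of the DMSO lists and in all 3 of either other condition, at 17.9 times with DMSO, against 24.0, 21.6 and 14.1 with LPS and 28.6, 28.3 and 35.1 with LPS+Skatole. There all LPS+Skatole values lay above the LPS values, at 1.54 times, against the same median shift of 1.18 times over all shared regions, which do not include this one. Its folds over local background were far lower than these heights. They were 3.06 with DMSO, against 4.31, 3.90 and 2.58 with LPS and 5.12, 5.18 and 6.10 with LPS+Skatole.

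Il18 encodes a cytokine precursor cut by caspase-1. The peaks numbered 3, 4 and 4 with DMSO, against 5, 5 and 5 with LPS and 5, 5 and 3 with LPS+Skatole. Every LPS library had more than any DMSO library, and LPS+Skatole overlapped both (exact permutation test, p = 0.214, adjusted p = 0.549). The start-site region (chr9:50552845-50555372), which also overlaps the gene body of Bco2, had 60.6, 55.1 and 36.8 times with DMSO, against 30.9, 45.4 and 32.8 with LPS and 33.3, 42.0 and 53.4 with LPS+Skatole, and the groups overlapped. A region 2.61 kb upstream, inside Bco2, had 11.5 to 51.5 times over a local background of 3.2 to 17.6 times, and its groups overlapped too. The covered length was 3.55, 2.88 and 2.94 kb with DMSO, against 4.05, 5.08 and 4.51 with LPS and 3.82, 4.94 and 4.92 with LPS+Skatole, with all DMSO libraries below all others (exact permutation test, p = 0.0429, adjusted p = 0.159).

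In DMSO replicate 3 and in all LPS and LPS+Skatole libraries the highest-ranked Il18 peak was not at the promoter. A region 36.4 kb from the start site (chr9:50590161-50591865), 8.32 kb past the end of Il18 and 4.48 kb from Sdhd, a mitochondrial complex II gene, overlapped no annotated gene body. Its heights were 41.3, 28.6 and 35.3 times with DMSO, against 52.7, 39.1 and 55.03 with LPS and 41.9, 82.3 and 83.1 with LPS+Skatole. All LPS+Skatole values lay above the DMSO values, by a ratio of 1.97, and LPS overlapped both (exact permutation test over the 3 groups, p = 0.0821, adjusted p = 0.279). After centring both calls changed: LPS lay above DMSO at 1.60 times, and LPS+Skatole overlapped DMSO at 1.79 times. LPS+Skatole replicate 1 was far below the other LPS+Skatole libraries and within the LPS range. Its ranks in the lists were 3526, 7048 and 4933 with DMSO, against 1018, 2649 and 1137 with LPS and 4494, 401 and 396 with LPS+Skatole. In limma LPS+Skatole against DMSO was 0.93 ± 0.282 (log2 change ± SE, n = 3 per group) with an adjusted p of 0.0712, and 0.0934 after centring.

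The authors' fold, which divides by the local background, was compared as the highest fold of any peak in each gene's window. That peak need not have the highest summit, and at Nlrp3, Nlrc4 and Aim2 its site differed between libraries. At Nlrp3 the highest fold was 17.3, 24.1 and 14.3 with DMSO, against 32.5, 21.2 and 28.8 with LPS and 35.0, 29.7 and 44.7 with LPS+Skatole (exact permutation test over the 3 groups, p = 0.0429, adjusted p = 0.258). All LPS+Skatole values lay above the DMSO values, and LPS overlapped both. The Nlrp3 peak with the highest summit had a lower fold in DMSO replicate 3 (8.72) and in LPS+Skatole replicate 2 (15.6). With those values LPS+Skatole and DMSO overlapped. At Nlrc4 the highest fold was 7.66, 9.59 and 9.33 with DMSO, against 12.4, 14.9 and 12.0 with LPS and 13.2, 14.1 and 18.0 with LPS+Skatole (exact permutation test, p = 0.0107, adjusted p = 0.168), with DMSO below the other groups. At Aim2 it was 16.8, 20.4 and 15.1 with DMSO, against 16.4, 20.01 and 21.3 with LPS and 26.6, 32.2 and 25.0 with LPS+Skatole (exact permutation test, p = 0.0179, adjusted p = 0.198), with LPS+Skatole above the other groups. The summits behind these Aim2 folds lay at -11494, 2452 and -1676 with DMSO and at -1472, -121 and -1473 with LPS. With LPS+Skatole they lay at 2433, -11390 and 2434, so the test does not compare heights at a single site. Casp1, Casp4 and Gsdmd overlapped between all groups, and at Il18 the DMSO values, 13.1 to 17.4, lay below the LPS values, 20.6 to 29.2, and the LPS+Skatole values, 17.7 to 43.7.

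**Figure D5:**
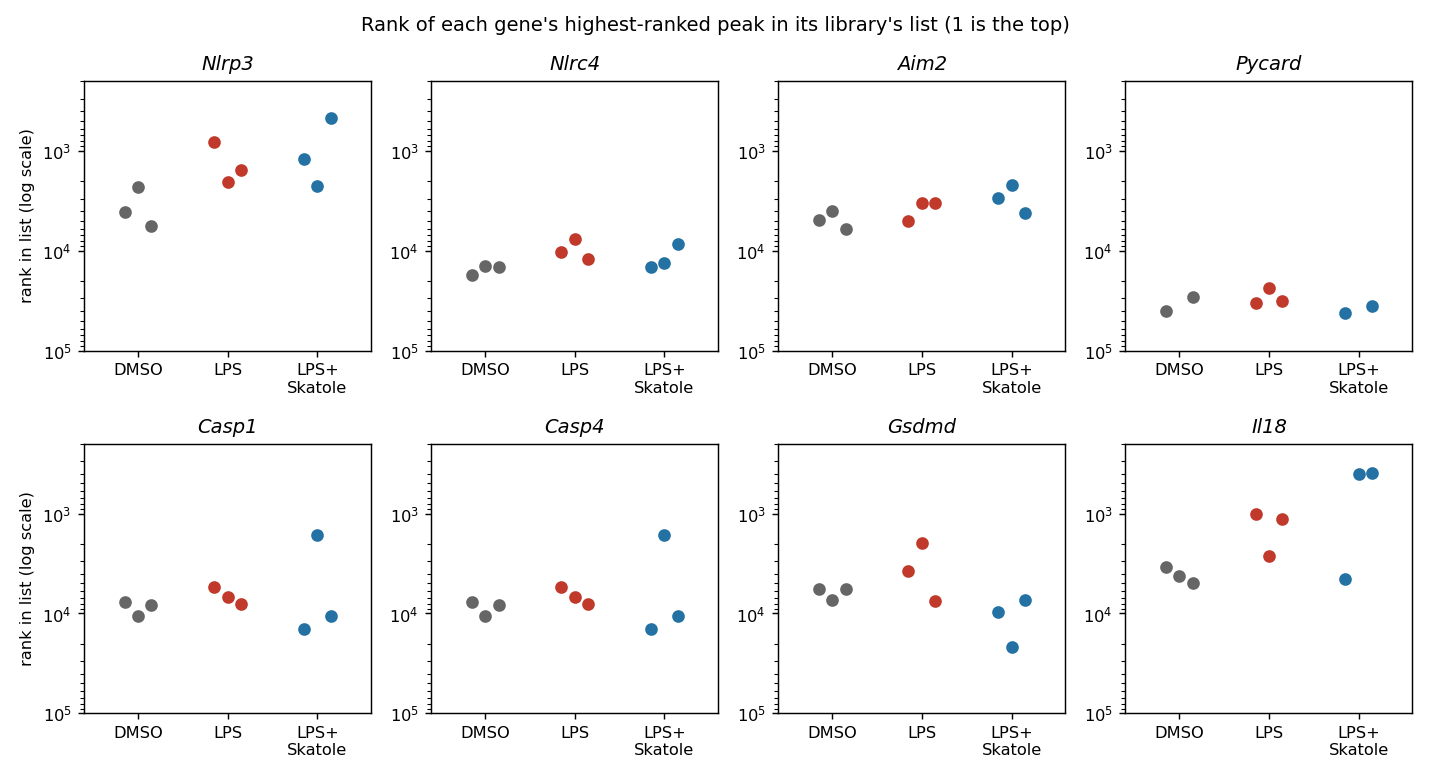
Rank of the highest-ranked peak of each gene in its library's list (y axis, log scale, 1 at the top), 1 point per library, with no point where the gene had no peak. Nlrp3 ranked at 2310 to 5678 with DMSO, 807 to 2065 with LPS and 466 to 2251 with LPS+Skatole, and Casp1 and Casp4 show the same peak because their windows overlap.

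A wider list of 46 genes around the pathway was counted in the same windows. LPS against DMSO separated 12 upward, against 12.2% of all genes, and 1 downward (Nlrp10), against 0.364%. LPS+Skatole against LPS separated 1 upward (Naip2), against 9.1%, and 1 downward (Nlrx1), against 0.774%. LPS+Skatole against DMSO separated 17 upward, against 25.4%, and 0 downward, against 0.174%. The median difference was 1 peak, 0.667 and 1.67 peaks in these comparisons, against 0.667, 0.333 and 1 over all genes with a peak. The list was drawn up with earlier results of these data known, and 0 of its genes had an adjusted p under 0.05 in the exact permutation test over the 3 groups.

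Of the 22 genes that separated in any pair, those with the largest differences included Nlrx1, Pstpip1, Dpp8, Il1rn, Dpp9, Il1a, Ninj1, Il1b, Naip2, Ripk3 and Fadd. Il1b, the interleukin-1β precursor that caspase-1 cuts, had peak numbers of 2, 3 and 2 with DMSO, against 7, 5 and 5 with LPS and 5, 4 and 4 with LPS+Skatole, with LPS and LPS+Skatole overlapping and both above DMSO. Il1rn, the receptor antagonist of that cytokine, had 1, 2 and 2 with DMSO, against 5, 7 and 5 with LPS and 7, 6 and 6 with LPS+Skatole. Nlrx1, a mitochondrial member of the NLR family, had 2, 2 and 2 with DMSO, against 8, 8 and 8 with LPS and 5, 7 and 7 with LPS+Skatole, and there LPS was above both other groups. Naip2, a partner of Nlrc4, had 2, 3 and 1 with DMSO, against 2, 2 and 2 with LPS and 5, 8 and 3 with LPS+Skatole, and LPS+Skatole exceeded LPS. Nlrp10, a further NLR gene, had 5, 4 and 6 with DMSO, against 3, 3 and 3 with LPS and 7, 6 and 3 with LPS+Skatole.

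The labelled cell type was checked at its markers. A peak within 3 kb of a gene end was present in all 9 libraries for 9 of 10 macrophage markers (Spi1, Csf1r, Adgre1, Cd68, Lyz2, Itgam, Cd14, Cebpb and Fcgr1), against 40.5% of all protein-coding genes. It was present in all 9 for 1 of 4 T cell markers (Cd3d), 1 of 4 B cell markers (Cd79a), 0 of 3 chondrocyte, 0 of 2 hepatocyte and 0 of 2 neuron markers, and in 0 libraries for the B cell genes Pax5 and Ms4a1. A peak shows p65 signal near a gene and not its expression.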

How the data were processed

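CUT&Tag peak lists of 9 libraries (3 per condition) were analysed. The authors called peaks per library, and the deposited columns hold the fold at the summit over local background (a ratio), the −log10 p and −log10 q, and a score, which is 10 times the −log10 p rounded down. The lists begin at a −log10 p of 5. The submitters' processing notes name fastp 0.20.1, HISAT2 2.1.0, StringTie 2.0 and the mm10 build (GRCm38) without their roles, and the peak caller is not given in the sources used here. Replicates were not pooled. No read totals were used, so the precision of a count rests on the spread of 3 libraries.

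The summit count and local background were solved from fold and −log10 p under a Poisson model, and over 99.99% of summits came out whole within 0.05. The genome background of a list is its lowest local background. Peaks were assigned to gene windows by an overlap of at least 1 base with the RefSeq gene body and 10 kb on either side, and regions are merged peaks that overlap by at least 1 base. A peak lay within 250 bases of 30.4% of start sites, against 5.80% after a shift of 10 kb, which checked the build.

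Groups were compared by exact permutation over the 280 ways to divide the libraries (smallest p 0.00357) with Benjamini-Hochberg adjustment over all genes or regions tested, by two-sided exact permutation for pairs (smallest p 0.1), and by limma 3.58.1 in R 4.3.3 as an alternative added after seeing the data. Other steps used Python 3.11.15 with numpy 2.4.6, pandas 2.3.3 and scipy 1.17.1, and were tested on simulated data. Alternatives were equal list length, −log10 p of at least 10, summits of at least 8 times background, windows of 3 kb or the gene body alone, assignment by summit, other region rules, ranking by fold, a replicate block and leaving out each library. All 8 genes are named, and the rule for a wider list takes the 12 genes chosen by the largest difference of group means among those whose peak numbers do not overlap in a pair; some genes are not reported here. The genes and lists were chosen with earlier results of these data known. One library without primary antibody was not analysed here.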

Additional observations from a re-analysis of the deposited data

How the results depend on the processing

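Of 327 recomputed summary values 268 stayed near the reported one, and of 1022 recomputed values of single genes 978 did, with the other 44 moving by more than the spread between libraries. The cause of the moves was not tested. With lists of equal length, the ratio of peaks at the 8 genes became 1.17 (LPS against DMSO) and 1.00 (LPS+Skatole against DMSO), the genes with more peaks numbered 0 in both (2.77% and 3.18% of all genes), and for LPS+Skatole against LPS covered length was higher at 1 gene (6.89%) and lower at 0 (4.25%). With a −log10 p of at least 10, the genes with a peak differed by 1.00 per library between LPS and DMSO, the ratio for LPS+Skatole against DMSO was 1.70, regions gained there numbered 3 (3.64% of all regions), and genes covered less in LPS+Skatole than in LPS numbered 0 (1.91% of all genes). With summits of at least 8 times the background, the genes with more peaks numbered 1 for LPS and for LPS+Skatole against DMSO (4.72% and 12.1% of all genes), and for LPS+Skatole against LPS covered length was higher at 1 gene (13.9%) and lower at 0 (2.08%).

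With windows of 3 kb or the gene body alone, the genes with a peak differed by -0.667 between LPS and DMSO and by 0.333 between LPS+Skatole and LPS, both of opposite sign to the reported 0.333 and -0.333. In LPS+Skatole against LPS 1 gene then had fewer peaks with either window (0.641% and 0.605% of all genes), and 1 had more with the gene body alone (6.13%). Regions built from summits within 250 bases gave 4 gained (0.787% of all regions) and 1 lost (0.0731%) in LPS against DMSO, 1 lost in LPS+Skatole against LPS (0.146%) and 1 lost in LPS+Skatole against DMSO (0.08%). With 2 of 3 libraries as the rule, 5 were gained (3.68%) and 1 lost (0.502%) in LPS against DMSO, 2 gained (3.25%) and 1 lost (1.22%) in LPS+Skatole against LPS, and 5 gained in LPS+Skatole against DMSO (6.07%). Centring on each library's median gave 2 regions higher (8.8%) and 0 lower (10.5%) in LPS than in DMSO, 1 region higher in LPS+Skatole than in LPS (6.67%) and another 1 higher in LPS+Skatole than in DMSO (10.5%).

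Leaving out 1 library at a time gave these ranges, with the range over all genes or regions in parentheses. Genes with more peaks numbered 3 to 5 in LPS against DMSO (15.5% to 19.7%) and in LPS+Skatole against DMSO (29.4% to 33.4%), with 5 without DMSO replicate 3 in both, and 0 to 2 in LPS+Skatole against LPS (12.6% to 15.2%), with 2 without LPS replicate 3. Genes with fewer peaks numbered 0 to 1 in the latter (1.61% to 2.29%), with 1 without LPS replicate 1 or LPS+Skatole replicate 2. Regions gained numbered 2 to 4 in LPS against DMSO (1.29% to 1.95%), 0 to 1 in LPS+Skatole against LPS (0.781% to 1.43%), with 1 without LPS+Skatole replicate 1 or 3, and 1 to 3 in LPS+Skatole against DMSO (2.24% to 3.26%). Regions lost numbered 0 to 1 in LPS against DMSO (0.0719% to 0.234%), with 1 without DMSO replicate 1, and in LPS+Skatole against LPS (0.221% to 0.506%), with 1 without LPS replicate 3. Regions with higher summits numbered 0 to 2 in LPS against DMSO (5.68% to 7.05%), with 2 without DMSO replicate 1 or LPS replicate 2 and 1 without DMSO replicate 2, 3 to 6 in LPS+Skatole against LPS (28.8% to 32.6%) and 3 to 5 in LPS+Skatole against DMSO (17.7% to 18.6%). Regions with lower summits numbered 2 to 4 in LPS against DMSO (29.3% to 33.4%), 0 to 1 in LPS+Skatole against LPS (2.94% to 4.34%), with 1 without LPS+Skatole replicate 2, and 0 to 1 in LPS+Skatole against DMSO (16.4% to 17.2%), with 1 without any single DMSO library.

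Replicate numbers showed no clear pairing: deviations of same-numbered libraries from their group means correlated at -0.0149 to 0.0409. Those of libraries with other numbers correlated at -0.0347 to 0.0194. Such correlations cannot decide whether same-numbered libraries shared a culture or batch. With the replicate block, the exact permutation p of peak number at Nlrp3 was 0.0833 (adjusted p 0.458), and 0 of all genes passed an adjusted p of 0.05 with or without it. The limma fit with the block on centred heights called 0 of the 13 member regions, against 0.311% of all regions higher and 0.0289% lower in LPS against DMSO, 0% and 0% in LPS+Skatole against LPS, and 2.1% and 1.11% in LPS+Skatole against DMSO. Summits under 6.44 to 7.34 times the background in DMSO, or 4.59 to 4.94 times in the other groups, could not be seen in these lists, so a region listed in 0 DMSO libraries may have been below that limit. These are the lowest values over whole lists, and the limit is higher where the local background is raised.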
